A study of Mus musculus with 4 samples.

Results

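This account follows the livers of mice that had lost Met and were fed canertinib, from day 7 to day 10 of the feeding. The measure is the day 10 array minus the day 7 array of that group, on the log2 scale, for each of 11993 genes kept of 18193 named on the array. It rests on 2 of the 4 arrays of the series, and the other 2 give the same difference in control livers. Each array held RNA pooled from the livers of 1 group on 1 day. The labels used here do not give the number of animals in a pool, there is no replicate of any array, and no test was made. A difference is therefore given as a size, beside the control difference of the same gene, and "higher" or "lower" in a count means at least 2-fold.

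All mice, controls included, had the genotype Metff/ff:ERCre+/+, that is, floxed Met alleles together with a Cre that becomes active under tamoxifen. The treated group, named delta MET + EGFRi in the labels, was injected with tamoxifen in corn oil on 5 days to remove exon 16 of Met throughout the body. After 4 days of rest its food contained canertinib, which blocks the kinase of the EGF receptor (EGFR), aimed at 80 mg/kg/day, for 7 or 10 days. Control littermates were injected with corn oil alone, rested for 4 days and were killed 7 or 10 days later without canertinib. Age, sex and the hour of killing are not in the labels used here, and the deletion, tamoxifen, canertinib and any change in eating cannot be told apart. MET, the receptor of hepatocyte growth factor, and EGFR both carry growth and survival signals into hepatocytes. Hepatocytes make bile acids from cholesterol, oxidise and conjugate foreign compounds, turn ammonia into urea and secrete most plasma proteins. When proteins misfold in their endoplasmic reticulum (ER), a signalling pathway raises the chaperones of that compartment, and cytokines such as interleukin 6 switch on the secreted acute phase proteins through STAT3.

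The unit throughout is the MAS5 signal, a linear intensity per probe set, and paired values are those of day 7 and then day 10. The median signal lay between 210.5 and 223.9 on the 4 arrays, and 24.3% to 25.7% of probe sets were under the floor of 64.8, the level to which dimmer values were raised before log2 was taken. The ratio of the 3′ to the 5′ actin control probe sets, a sign of RNA quality, was 2.28 at day 7 and 1.98 at day 10 in treated livers, and 1.81 and 2.59 in control livers. Liver transcripts were strong on all 4 arrays. Albumin (Alb) gave signals from 78532 to 74100.5 in treated and from 75758 to 71295 in control livers. Of 9 pancreatic enzyme genes on the array 4 passed the filter for dim genes, with a summed signal of 3328 and 3816 in treated and 5785 and 3194 in control livers. Among them Cela1, an elastase, went from 1023 to 1463 in treated and from 2993 to 1171 in control livers, while Cpa1, a carboxypeptidase that did not pass, was under the floor on every array. Met itself, the deleted gene, had signals of 2432 at day 7 and 2829 at day 10 in treated livers and of 976 and 1271 in control livers. The position of its probe set relative to exon 16 was not analysed here, so that this value does not check the deletion.

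Between day 7 and day 10, 460 genes (3.84%) were higher and 453 (3.78%) lower in treated livers. In control livers 246 (2.05%) were higher and 370 (3.09%) lower. Since the control livers had no change of treatment between these days, their counts show how far 2 such arrays can lie apart. The treated changes did not follow the control changes, with Pearson's r and Spearman's rho both -0.07 over the 11993 genes, which are not independent. Relative to control, the treated counts were largest in strongly expressed genes. Among the 2998 brightest genes, treated livers had 83 higher (2.77%) and 131 lower (4.37%), against 27 (0.901%) and 34 (1.13%) in control livers. Among the 2999 dimmest the treated counts were 223 and 184 and the control counts 142 and 209. When the control change was subtracted from the treated change, 1082 genes (9.02%) were at least 2-fold up and 842 (7.02%) at least 2-fold down. A second probe set bright enough to pass the same filter was there for 123 of the higher genes and also showed a 2-fold rise for 37 of them (30.1%). For 123 of the lower genes it was 43 (35.0%), and in control livers 8 of 65 (12.3%) and 9 of 73 (12.3%).

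**Figure D1:**
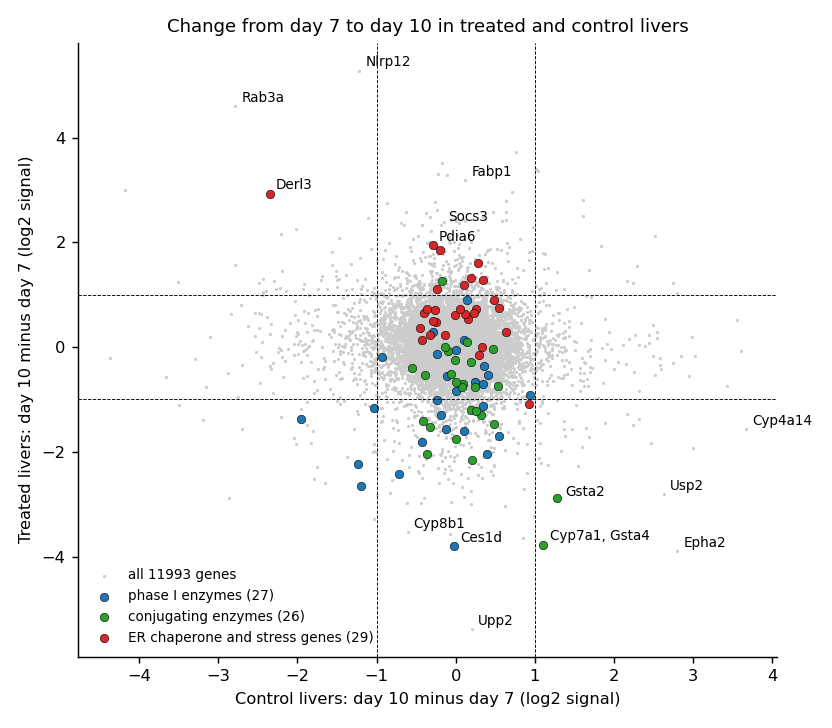
Each point is 1 of 11993 genes, with its day 10 minus day 7 difference in control livers on the x axis and in treated livers on the y axis (log2 signal, 1 pooled array per group and day). Dashed lines mark 2-fold. Phase I enzymes (blue) and conjugating enzymes (green) lie mostly below 0 on the y axis and near 0 on the x axis, ER chaperone and stress genes (red) mostly above 0 on the y axis, and Derl3, Rab3a, Usp2 and Epha2 lie far out in opposite directions in the 2 groups.

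The largest decrease was that of Upp2, a liver uridine phosphorylase that breaks down uridine. Its signal went from 7811 to 187 in treated livers, 41.7-fold lower, and from 4048 to 4664 in control livers. Of its 2 other probe sets 1 ended under the floor, lower by at least 5.86 on the log2 scale, and the other lay at the floor at both days. Ces1d, a carboxylesterase that splits esters of drugs and lipids, had about the same signal on 3 arrays, 11973 and 11839 in control livers and 10946 in treated livers at day 7. At day 10 in treated livers it was 785, 13.9-fold lower, and both of its other probe sets were lower too, by 2.43 and 3.76 on the log2 scale. Its relative Ces1g went from 4433 to 562 in treated and from 4517 to 3347 in control livers. Afmid, the kynurenine formamidase of tryptophan breakdown, went from 4186 to 355 in treated livers (11.8-fold lower) and from 2296 to 2188 in control livers. Inmt, an amine methyltransferase, went from 7846 to 977 and from 14432 to 16551, and Arrdc3, an arrestin domain protein, from 2415 to 309 and from 1458 to 1399. In these 6 genes the control difference lay between -0.43 and 0.20.

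Of the other genes at the lower end, Rgs16, Sema3f, Epha2 and Igfbp2 had been above both control signals at day 7. Rgs16, a regulator of G protein signalling, was under the floor at 26.3 in control livers at day 7 and 116 at day 10, and in treated livers it was 1939.8 at day 7 and 155 at day 10. Sema3f, a secreted guidance protein, went from 1969 to 252 in treated livers (7.83-fold lower) and from 279 to 182 in control livers. Epha2, an ephrin receptor kinase, was 1108 at day 7 and 74.9 at day 10 in treated livers, and moved the other way in control livers, from 78.6 to 547. At day 10 the treated signal of Epha2 was near that of the day 7 control, and that of Sema3f lay between the control signals. Igfbp2, a binding protein of insulin-like growth factors, fell by 2.89 on the log2 scale, from 14139 to 1910.1, against 8609 and 6547 in control livers. Med18, a Mediator subunit, ended at 62.4, under the floor, from 531, which is at least 8.19-fold lower, with 447 and 689.6 in control livers. For Ercc1, a DNA repair gene (from 1926 to 199, control 2660.0 and 1298), and Cklf, a chemokine-like factor (from 1641 to 174, control 611 and 1214), the other probe sets gave differences between -0.54 and 0.83. The other probe sets of Rgs16 and Sema3f, all too dim to pass the filter, gave differences between -0.70 and 0.00. The place of these 4 genes among the lowest therefore rests on 1 probe set each.

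In bile acid synthesis the largest decreases were in 2 hydroxylases. Cyp7a1, the rate-limiting enzyme of the classic pathway, had a signal of 7478 in treated livers at day 7, above both control signals of 1587 and 3373, and of 546 at day 10, below both. That is a 13.7-fold decrease in treated livers beside a 2.13-fold increase in control livers. Its other probe set was lower by 3.29 on the log2 scale in treated livers and higher by 0.80, less than 2-fold, in control livers. Cyp8b1, the sterol 12-alpha-hydroxylase that makes cholic acid, was already low at day 7. It went from 3245 to 280.2 in treated livers, 11.6-fold lower, and from 13336 to 8760.0 in control livers. Akr1d1, a reductase of the same pathway, was 2.83-fold lower (-1.50 in treated, 0.12 in control livers on the log2 scale). Nr1h4, the bile acid receptor FXR, went from 2874 to 1199 in treated livers and from 929 to 2094 in control livers, opposite directions. Nr0b2, the repressor SHP that FXR induces, was the 1 higher member, from 1180.1 to 2766 against 1049 and 1402 in control livers. Of the 17 genes of bile acid synthesis kept, 1 was higher and 4 lower in treated livers (5.88% and 23.5%), with a median difference of -0.27 against 0.03 over all genes. Cyp27a1, Baat, Acox2 and Slc27a5, which oxidise the side chain or conjugate bile acids, fell just short of 2-fold, with differences from -0.99 to -0.94 beside -0.10 to 0.28 in control livers. Cyp7b1 of the alternative pathway had signals of 17973 and 18007 in treated and 17247 and 13034 in control livers.

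Some carriers of bile acids and sterols were lower as well. Slc10a1 (NTCP), which takes up conjugated bile acids from blood, went from 28154 to 9549.5 in treated livers, 2.95-fold lower, and from 13257 to 12912 in control livers. Slco1a4, an organic anion carrier, went from 4050.2 to 1137 and, in control livers, from 365 to 763. Abcc3, a basolateral exporter, and Abcg5, a sterol exporter, were lower by 1.20 and 1.08 on the log2 scale, with control differences of -0.11 and 0.48. The canalicular bile salt pump Abcb11 differed by 0.13 in treated and 0.42 in control livers. Of 18 bile transporters kept, 4 were lower (22.2%) and 1, the phospholipid flippase Atp8b1, was higher (1.08, control 0.20).

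The drug-metabolising enzymes were lower as a group. Phase I enzymes, which oxidise or hydrolyse foreign compounds, numbered 27 among the kept genes, of which 14 (51.9%) were lower and 0 higher in treated livers, where 3.78% of all genes were lower. Their median difference was -1.02 in treated and -0.02 in control livers, where 4 were lower and 0 higher. Cytochromes of the Cyp2c subfamily led the group after Ces1d. Cyp2c50 went from 42875 to 6793 in treated and from 26111 to 11384 in control livers, so that the control also declined, 2.29-fold against 6.31-fold. Cyp2c37 went from 34681 to 6454 and from 6531 to 4004. Cyp2c54 went from 12437 to 2657 and from 5727 to 2429.8. At day 7 these 3 cytochromes had stood above control, and at day 10 the treated signals lay near or below the control signal of day 7. Cyp2c29, in contrast, started from the control level, from 21853 to 6196 in treated and from 22642 to 16951 in control livers. Members of the Cyp2c subfamily are similar in sequence, and their probe sets may share signal.

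Other phase I members were lower to a smaller degree. Cyp2f2, an oxidase of periportal hepatocytes, went from 26394 to 8679 in treated and from 38117 to 41254 in control livers. Cyp4f14, a fatty acid hydroxylase, differed by -1.70 (control 0.55), Fmo1, a flavin monooxygenase, by -1.57 (control -0.12) and Cyp3a25 by -1.29 (control -0.19). Cyp1a2, a pericentral cytochrome, was lower in both groups, by 1.17 and 1.03 on the log2 scale. Cyp2e1 and Cyp3a11, main cytochromes of the liver, stayed within 2-fold. Cyp2e1 went from 72351 to 65798 in treated and from 66423 to 56708 in control livers, and Cyp3a11 from 40733 to 27848 and from 53550.0 to 49777. Cyp2j5, an epoxygenase, had the highest difference of the group at 0.90, back to 14394 beside 14509 in the day 10 control. The nuclear receptor Nr1i3 (CAR), which drives many of these genes, went from 6930.3 to 2328 in treated livers and from 1615 to 666 in control livers, 2.98-fold and 2.43-fold lower. The related receptor Nr1i2 (PXR) differed by 0.19 and 0.23.

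Conjugating enzymes, which add glutathione, sulfate or glucuronic acid, followed. Of 26 kept, 11 (42.3%) were lower and 1 (3.85%) higher in treated livers, and 0 were lower and 2 higher in control livers. The median difference was -0.75 in treated and 0.08 in control livers. The alpha class glutathione transferases were the lowest. Gsta4 went from 892 to 42.9, under the floor, in treated livers, at least 13.8-fold lower, and from 1622 to 3469 in control livers. Gsta2 went from 682 to 92.3 in treated and from 1818 to 4424 in control livers. Gsta3 went from 10969.5 to 2453 and from 12789 to 14767. In Gsta4 and Gsta2 the treated and control changes had opposite directions and both passed 2-fold. Among the sulfotransferases, Sult1a1 and Sult1d1 were above control at day 7 and nearer to it at day 10. Sult1a1 went from 25384 to 9158 with 4460.5 and 6256 in control livers, and Sult1d1 from 9956 to 2952 with 2556 and 2557. Sult3a1, which did not pass the filter, moved away from control, from 381 to 914 with 18.2 and 61.6 in control livers. The glucuronosyltransferase Ugt2b1 was low at day 7 and lower at day 10, from 7587 to 2829, with 34876 and 26238 in control livers. Mgst1, the microsomal transferase, differed by 0.01 (control -0.13) and the acetyltransferase Nat8, the 1 higher member, by 1.27 (control -0.17). Among 21 genes of the NRF2 and glutathione response, 0 were higher and 2 lower, both of them transferases counted above, with a median of -0.38 in treated and 0.32 in control livers.

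**Figure D2:**
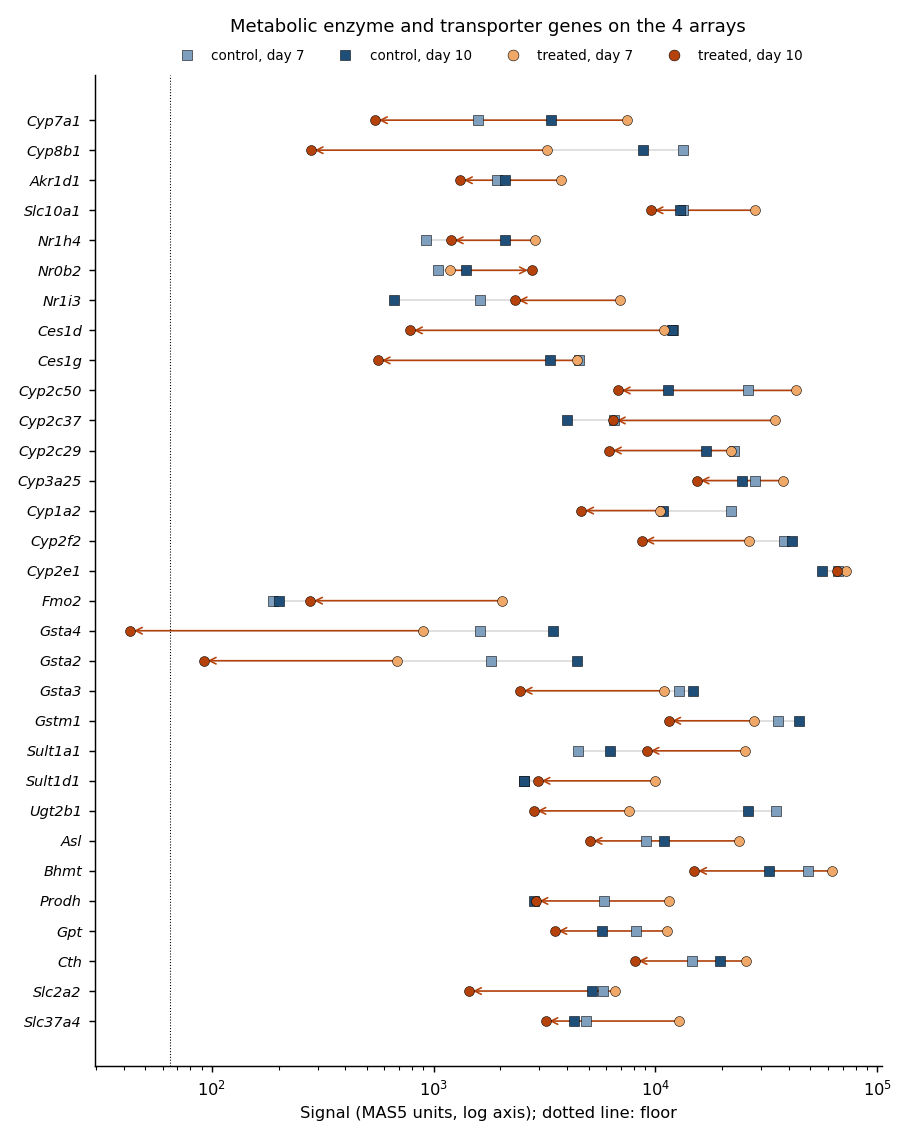
Signal (MAS5 units, log x axis) of 31 metabolic genes on the 4 pooled arrays, squares for control and circles for treated livers, paler for day 7 and darker for day 10, with an arrow from day 7 to day 10 in treated livers and the floor of 64.8 as a dotted line. All arrows but that of Nr0b2 point left, the longest being those of Cyp7a1, Cyp8b1, Ces1d and Gsta4, and that of Cyp2e1 is hardly visible.

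Genes of amino acid and urea metabolism were lower as well. Of 37 kept, 8 (21.6%) were lower and 1 (2.70%) higher, 33 differences were below 0, and the median was -0.43 in treated and 0.16 in control livers. Asl, the urea cycle enzyme that releases arginine, went from 23906 to 5068 in treated livers, 4.72-fold lower, and from 9062 to 10989 in control livers. Bhmt, which remethylates homocysteine, went from 62307 to 15004 and from 48695 to 32421. Prodh, the first enzyme of proline breakdown, went from 11514 to 2889.5 and from 5848 to 2835, and the treated signal at day 10 lay beside that of the day 10 control. Gpt and Gpt2, the alanine aminotransferases, differed by -1.68 and -1.22 in treated and by -0.51 and -0.01 in control livers, with -0.71 on the second probe set of Gpt and -1.63 to -0.36 on the 3 others of Gpt2. Cth, which makes cysteine, went from 25728 to 8090.4 against 14629 and 19546, and Gnmt, the glycine methyltransferase, from 51305 to 18802 against 40652 and 40399.7. Cps1, the entry enzyme of the urea cycle, and Ahcy, which splits adenosylhomocysteine, were just short of 2-fold at -0.97 and -0.99 (control -0.18 and 0.03). The member that was higher was Phgdh, the first enzyme of serine synthesis, from 517 to 2831 in treated and from 2478 to 2867 in control livers, although its 3 other probe sets differed by -0.75 to 0.45. Of 12 periportal genes 4 (33.3%) were lower and 0 higher. They included Hsd17b13, a lipid droplet enzyme (from 6188 to 1518, control 4615 and 7904), and Etnppl, a phospholyase (from 2621 to 987, control 4783 and 12331). The second probe set of Hsd17b13 differed by 0.57 and that of Etnppl by -0.66 (control 0.93).

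In carbohydrate metabolism 2 transporters of glucose stood out among 19 genes, of which 2 (10.5%) were lower and 0 higher. Slc2a2 (GLUT2), through which glucose enters and leaves hepatocytes, went from 6589 to 1449 in treated livers, 4.55-fold lower, and from 5825 to 5173 in control livers. Slc37a4, which carries glucose 6-phosphate into the ER, went from 12769.6 to 3205 and from 4881 to 4317. Gys2, the liver glycogen synthase, and Ppp1r3b, which targets a phosphatase to glycogen, were just short of 2-fold lower at -0.97 and -0.96, with control differences of 0.19 and 0.21. The gluconeogenic gene Pck1 differed by -0.28 in treated livers and was 2.70-fold higher in control livers, from 5691 to 15363. Of 32 genes of oxidative phosphorylation 0 passed 2-fold in either direction, but 29 differences were below 0, with a median of -0.19 in treated and 0.07 in control livers.

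Lipid genes divided. Of 28 genes of fatty acid oxidation 4 (14.3%) were higher and 5 (17.9%) lower in treated livers, and in control livers 6 were higher and 0 lower. Cyp4a14, a fatty acid hydroxylase and target of PPARA, went from 10842 to 3665 in treated livers and from 179.7 to 2280.4 in control livers. Acot3, a peroxisomal thioesterase, went from 1123 to 382 and from 117 to 325. In both, the treated and control signals lay far apart at day 7 and closer at day 10. Acaa1b, the peroxisomal thiolase, was low at day 7 and lower at day 10, from 3181 to 1443, against 28337 and 39676 in control livers. Among 30 genes of fat synthesis and storage 2 (6.67%) were higher and 3 (10%) lower, beside 3.84% and 3.78% of all genes. The largest decrease was in Acacb, from 611 to 107.5 in treated livers, 5.68-fold lower, and from 760 to 844 in control livers. Its second probe set, which did not pass the filter, differed by 0.79 in treated livers. Lpin1, a phosphatidate phosphatase, went from 9687 to 2339 in treated and from 1971 to 1719 in control livers, and Thrsp, a lipogenic regulator, from 9157 to 2325 and from 15248 to 7452, with differences of -1.37 and 0.59 on the other probe sets of Thrsp. Scd1, the stearoyl desaturase, and Elovl3, a fatty acid elongase, remained far below control at both days, from 3761 to 6188 against 62724 and 67629.6 for Scd1 and from 307 to 350.1 against 16697 and 16908.

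The main liver secretory products did not show decreases of such size. Alb differed by -0.08 (control -0.09) and transthyretin (Ttr) by -0.10 (control -0.04). The other probe sets of Ttr differed by -0.41 to -0.14 (control -0.11 to 0.03). Saturated probes are not marked in the values used here, so that differences among such bright signals may be understated. Of 17 apolipoprotein genes 0 passed 2-fold in either direction, with a median of -0.18 in treated and 0.08 in control livers. Of 16 plasma protein genes 1 (6.25%) was higher and 0 lower in treated livers, beside 3.84% and 3.78% of all genes. That gene, Serpina7, the thyroxine-binding globulin, went from 2211 to 7692 in treated and from 737 to 1581 in control livers. In whole liver a lower signal can come from fewer cells of a type or from less RNA per cell, which cannot be told apart here. Markers of other liver cells moved beside these genes. All 15 kept genes of sinusoidal endothelium had differences above 0 in treated livers, with 1 higher, Oit3 (from 270.4 to 658, control 283 and 282), and a median of 0.48 against -0.16 in control livers, where 4 were above 0. Their summed signal was 15582 and 22732 in treated livers at day 7 and day 10 and 16744 and 14972 in control livers. Stab2 and Lyve1, which define this endothelium, differed by 0.14 and 0.05 in treated and -0.16 and 0.63 in control livers. The part of cell composition in the enzyme results was not tested.

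Some genes that had been far below control at day 7 stood at or near the control level at day 10. Fabp1, the abundant liver carrier of fatty acids, went from 2909 to 26549 in treated livers, 9.13-fold higher, and from 58376 to 63240.0 in control livers, and its other probe set differed by 3.51. Its relative Fabp5 went from 1120.0 to 7651 against 6174 and 5156. Plin2, the coat protein of lipid droplets, went from 4987 to 18411 in treated and from 16650.1 to 18752 in control livers. C8a, a subunit of the complement attack complex, went from 3116 to 16993 and from 15539 to 16569. In Fabp5, Plin2 and C8a the day 10 treated signal was within 2-fold of the day 10 control signal, while Fabp1 had covered part of the distance. Pdk4, a kinase that shuts off pyruvate oxidation, went from 89.5 to 394 against 352 and 356. Bdh1, which makes hydroxybutyrate, went from 1285 to 3819.9 against 3958 and 3223. Tubb2a, a beta tubulin, went from 790.5 to 4092 against 4967 and 5117. Nudt7, a peroxisomal coenzyme A hydrolase, rose only to part of the control level, from 1804 to 5429 against 19938 and 20756, with 0.23 to 1.04 on its 3 other probe sets.

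Many of the other large increases began at signals close to the floor. Nlrp12, an intracellular sensor of the NLR family, went from 97.3 to 3781 in treated livers, 38.9-fold higher, and from 307 to 132 in control livers. Rab3a, a small GTPase of secretory vesicles, went from 156 to 3796 in treated livers and from 8541 to 1239.8 in control livers, so that the treated and control changes were opposite. The second probe set of Rab3a was higher by 1.95. Nme6, a nucleoside diphosphate kinase, went from 40.7, under the floor, to 862, at least 13.3-fold higher, with 198 and 335 in control livers. Epcam, a marker of biliary and progenitor cells, went from 56.7, also under the floor, to 746 (control 509 and 452), but its second probe set was at the floor at both days. In these 4 genes the day 7 treated array was the low one of the 4. The same held for Pelo, a ribosome rescue factor (from 70.4 to 745, control 154 and 313), Actr5, a chromatin remodelling subunit (from 75.2 to 740.1, control 655 and 559), Mthfd2, a mitochondrial folate enzyme (from 69.4 to 539.9, control 265 and 433), Galnt7, a glycosyltransferase (from 55.4 to 436, control 492 and 269), and Praf2, a membrane protein (from 74.4 to 522, control 147 and 448). The second probe sets of Actr5, Mthfd2 and Praf2 differed by 0.25 to 0.33, and those of Galnt7 by -0.78 and -0.17. Susd1, a sushi domain protein, and Atp11a, a phospholipid flippase, stood out at day 10 instead, from 302 to 3106 with 230.4 and 476 in control livers and from 313 to 2171 with 218 and 339.7, the second probe set of Atp11a differing by 0.23. Mroh2a, a HEAT repeat gene, went from 180.3 to 1445 in treated and from 2104 to 116 in control livers, with its second probe set at the floor.

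The ER chaperones and their partners were higher together at day 10. Of 29 kept genes of ER and integrated stress responses, 8 (27.6%) were higher and 1 (3.45%) lower in treated livers, where 3.84% of all genes were higher, and 27 differences were above 0. The median was 0.66 in treated and 0.05 in control livers, and in control livers 0 were higher and 1 lower. Of the 8 higher genes 7 have a promoter window in the tables used here, and 4 of these windows hold the ER stress response element, to which ATF6 is known to bind together with the factor NF-Y. They are shown because this element is shared by members that moved together. Each line gives the 250 bases before a RefSeq start site (build GRCm38.p6, plus strand), with the arms of the element, CCAAT and CCACG with 9 bases between, in capitals (on the other strand they read CGTGG and ATTGG).
Hspa5 (chr2:34771840-34772089): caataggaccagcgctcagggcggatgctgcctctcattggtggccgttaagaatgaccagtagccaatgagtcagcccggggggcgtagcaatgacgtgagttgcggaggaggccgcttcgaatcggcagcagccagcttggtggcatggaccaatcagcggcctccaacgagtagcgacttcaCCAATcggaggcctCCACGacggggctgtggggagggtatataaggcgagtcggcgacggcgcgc
Derl3 (chr10:75893148-75893397): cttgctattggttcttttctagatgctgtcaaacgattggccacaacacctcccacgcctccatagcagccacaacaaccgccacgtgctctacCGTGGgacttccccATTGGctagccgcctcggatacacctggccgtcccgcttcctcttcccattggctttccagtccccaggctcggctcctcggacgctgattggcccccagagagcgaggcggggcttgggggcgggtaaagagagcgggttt
Pdia6 (chr12:17266339-17266588): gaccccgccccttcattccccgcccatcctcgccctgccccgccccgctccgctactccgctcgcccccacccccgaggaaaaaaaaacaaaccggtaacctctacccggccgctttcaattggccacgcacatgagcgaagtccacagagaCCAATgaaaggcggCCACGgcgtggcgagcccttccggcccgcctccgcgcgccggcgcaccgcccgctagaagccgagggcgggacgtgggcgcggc
Creld2 (chr15:88819396-88819645): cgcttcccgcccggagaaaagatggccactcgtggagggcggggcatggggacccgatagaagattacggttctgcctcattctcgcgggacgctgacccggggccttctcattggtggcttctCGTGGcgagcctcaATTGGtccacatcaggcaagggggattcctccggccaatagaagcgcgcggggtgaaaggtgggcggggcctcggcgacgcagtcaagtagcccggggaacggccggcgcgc
The element began 65 bases before the start site in Hspa5, 156 in Derl3, 98 in Pdia6 and 126 in Creld2. It was searched on both strands in windows from 250 bases before to 50 after each start. It lay in 39 of 32851 such windows (0.119%) and in 9 of the 26 genes of the list that have a window, all 9 with a treated difference above 0. The other 5 were Canx, Calr, Dnajc3, Hsp90b1 and Syvn1, whose differences ranged from 0.36 to 0.89 in treated and from -0.45 to 0.48 in control livers. The element was chosen after the values of these genes were seen, and the list holds genes known for it, so that the match is a description only. Other motifs were also searched on both strands in the 15 highest and 15 lowest genes named by size, of which 13 and 11 have a window. The STAT motif TTCNNNGAA lay in 1 and 0 of them (8.3% of all windows), the C/EBP motif TTNNGNAA in 4 and 3 (40.7%), the AP-1 motif TGANTCA in 0 and 0 (7.81%), the E-box CACGTG in 3 and 0 (7.15%) and the D-box TTANNTAA in 0 and 1 (6.0%).

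Among these 4 genes, Hspa5 (BiP), the main chaperone of the ER, went from 10919.7 to 23637 in treated livers, 2.16-fold higher, and from 14298 to 12220.1 in control livers, and its 2 other probe sets were higher by 0.28 and 0.96. Pdia6, a disulfide isomerase, went from 3160.5 to 12175 and from 4995 to 4092, with 0.42 for its second probe set. Creld2, a secreted ER protein, went from 764 to 1872 and from 759.8 to 972. Derl3, part of the channel that exports misfolded proteins for degradation, went from 172 to 1311 in treated livers but from 927 to 182 in control livers. The other 4 were Sec61b, a subunit of the import channel (from 3458 to 12496, control 5647 and 4901), Sdf2l1, a BiP cofactor (from 578 to 1764, control 575 and 699), Pdia3, an isomerase of glycoproteins (from 3787 to 9366, control 4359.6 and 4984), and Manf, a secreted ER stress protein (from 2575 to 5865, control 2590.1 and 2800.0). The second probe set of Pdia3 differed by 0.67. In all 8 the treated signal was below the higher of the control signals at day 7 and above both of them at day 10. Calr, the lectin chaperone, went from 27562 to 44889.9 with 30026 and 25053 in control livers, and Xbp1, a transcription factor of the unfolded protein response, from 15264 to 25376 with 13021 and 10180.4. Genes of the PERK branch varied. Atf4 differed by 0.24 (control -0.33), Ddit3 (CHOP) by 0.24 (control -0.13) and Trib3 by 0.50 (control -0.29). Chac1 and Atf5 differed by 0.66 and 0.74 (control -0.40 and 0.55), and Asns by -0.15 (control 0.30). The 1 lower member was Herpud1, which helps to degrade ER proteins, from 9209 to 4323 in treated and from 3392 to 6442 in control livers, with -0.94 on its second probe set in treated livers. Among 13 heat shock genes of the cytosol 2 (15.4%) were higher, Bag3 (1.31, control -0.22) and Hsph1 (1.02, control 0.18), and 0 lower.

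**Figure D3:**
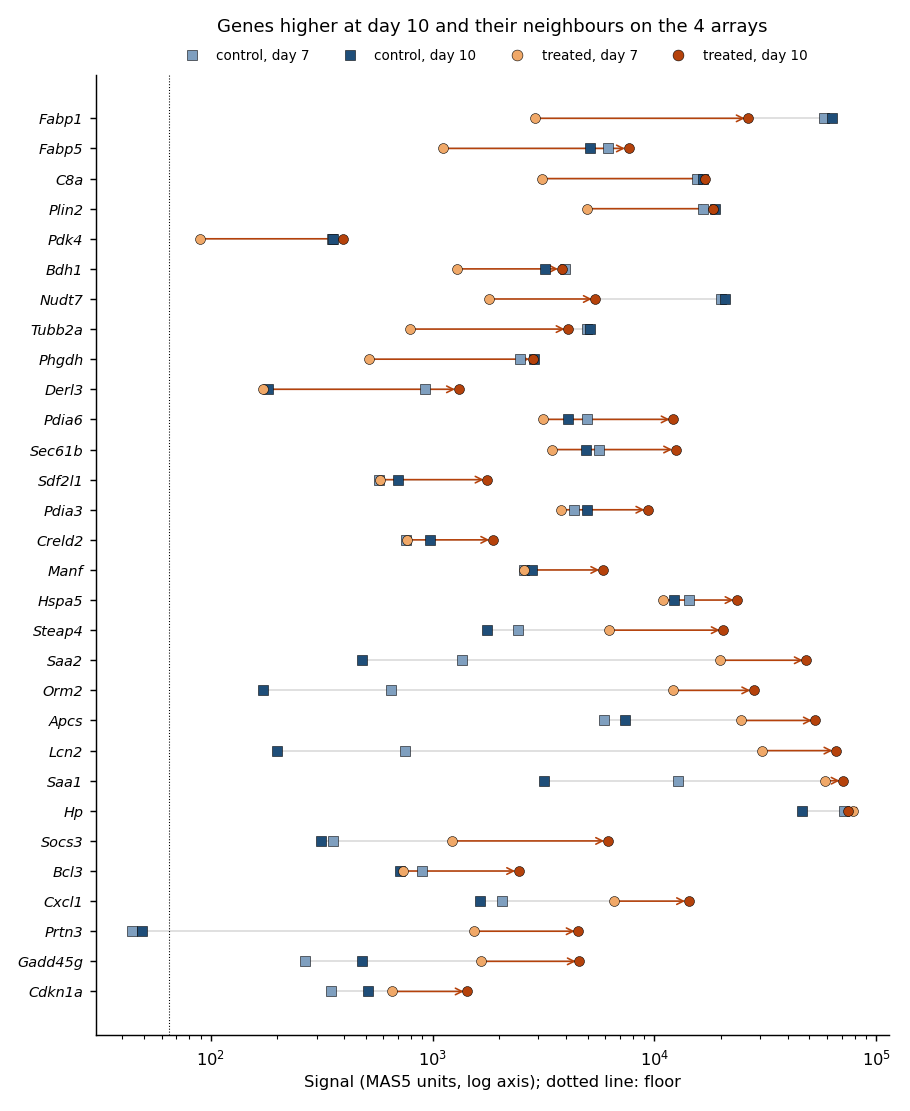
Signal (MAS5 units, log x axis) of 30 genes on the 4 pooled arrays, drawn as squares (control) and circles (treated), paler for day 7 and darker for day 10, with an arrow from day 7 to day 10 in treated livers and the floor as a dotted line. Fabp1 to Phgdh start left of the control squares and move toward them, Derl3 to Hspa5 end to the right of the squares, and the acute phase genes from Steap4 to Hp lie to the right of the squares at both days.

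The acute phase genes were already above control at day 7, and a few went further. Of 24 kept, 5 (20.8%) were higher and 0 lower between day 7 and day 10 in treated livers, while 0 were higher and 5 lower in control livers. The median difference was 0.28 in treated and -0.15 in control livers. Steap4, a metalloreductase, went from 6280.0 to 20485 in treated and from 2419 to 1768 in control livers. Saa2, a serum amyloid, went from 19853 to 48505 and from 1356 to 479, and Orm2, an orosomucoid, from 12193 to 28119.7 and from 649.5 to 171. Lcn2, the iron-binding lipocalin, went from 30636 to 66002 in treated and from 755 to 199 in control livers, and Apcs, serum amyloid P, from 24648 to 53299.8 and from 5921 to 7403. Thus Saa2, Orm2 and Lcn2 were more than 2-fold higher in treated and more than 2-fold lower in control livers. Other members were high and flat. Saa1 went from 58534 to 71072 in treated livers while the control signal went from 12788 to 3186, and haptoglobin (Hp) from 78992 to 74796 while the control went from 71897 to 46342. Hamp, hepcidin, remained low in treated livers, from 2439 to 1916 against 50159 and 55852. The value table used here carries no mark of saturated probes, so that differences among the brightest signals may be understated.

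Of 12 genes of the interleukin 6 and STAT3 pathway, which acts upstream of these genes, 3 (25%) were higher and 0 lower, with a median of 0.48 in treated and -0.14 in control livers. Socs3, the STAT3-induced inhibitor of cytokine receptors, went from 1225 to 6167 in treated livers, 5.03-fold higher, and from 354 to 313 in control livers, and its 2 other probe sets were higher by 2.01 and 2.43. Bcl3, an NF-kB cofactor, went from 736 to 2448 and from 894 to 712. Il6st (gp130), the shared signalling receptor chain, went from 1914 to 3858 and from 1498 to 1264, and Stat3 itself differed by 0.57 and -0.20. The 3 other probe sets of Il6st differed by 0.53 to 1.52 in treated livers. The other probe sets of Stat3 were each more than 2-fold higher there, by 1.01 to 1.16, with -0.16 to 0.44 in control livers. The ligand Il6 lay between 86.1 and 135.5 on the 4 arrays and did not pass the filter. Of 18 genes of the interleukin 1 and NF-kB response 0 passed 2-fold in either direction, with Nfkbiz just short of it (from 3381 to 1691, control 345 and 338) and at -1.22 and 0.32 on its other probe sets.

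Among 15 chemokine genes 3 (20.0%) were higher and 1 (6.67%) lower. Cxcl14 went from 172 to 1031 in treated and from 399 to 259 in control livers. Its second probe set, too dim to pass the filter and under the floor at day 7, was higher by at least 3.05 in treated livers. Cxcl1, which attracts neutrophils, went from 6585 to 14289 and from 2057 to 1639, and both of its other probe sets were higher by at least 1.68. Ccl17 went from 191 to 421 and from 368 to 79.1, and Ccl24, the lower one, from 511 to 142 and from 326 to 159.8. Of 12 neutrophil genes 3 were higher and 0 lower: Lcn2, which hepatocytes also express, Prtn3, a granule protease (from 1541 to 4544 in treated livers and under the floor in both controls), and Elane, the granule elastase (from 449 to 1078 with 739 and 724 in control livers). S100a8 and S100a9, the main cytosolic proteins of neutrophils, differed by 0.13 and 0.13 in treated and -0.35 and 1.20 in control livers, and Camp was under the floor on every array. Macrophage markers were above control at both days but did not rise further. Of 22 kept 0 were higher and 1 (4.55%), the lysozyme gene Lyz1 (from 3181 to 1493, control 2237 and 815, with -1.17 and 0.40 on its other probe sets), was lower, with a median of -0.16 in treated and -0.46 in control livers. Their summed signal was 72485 and 70152 in treated and 34283 and 21405 in control livers. Csf1r, the macrophage growth factor receptor, went from 8846 to 8477 in treated and from 4635 to 2766 in control livers.

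**Figure D4:**
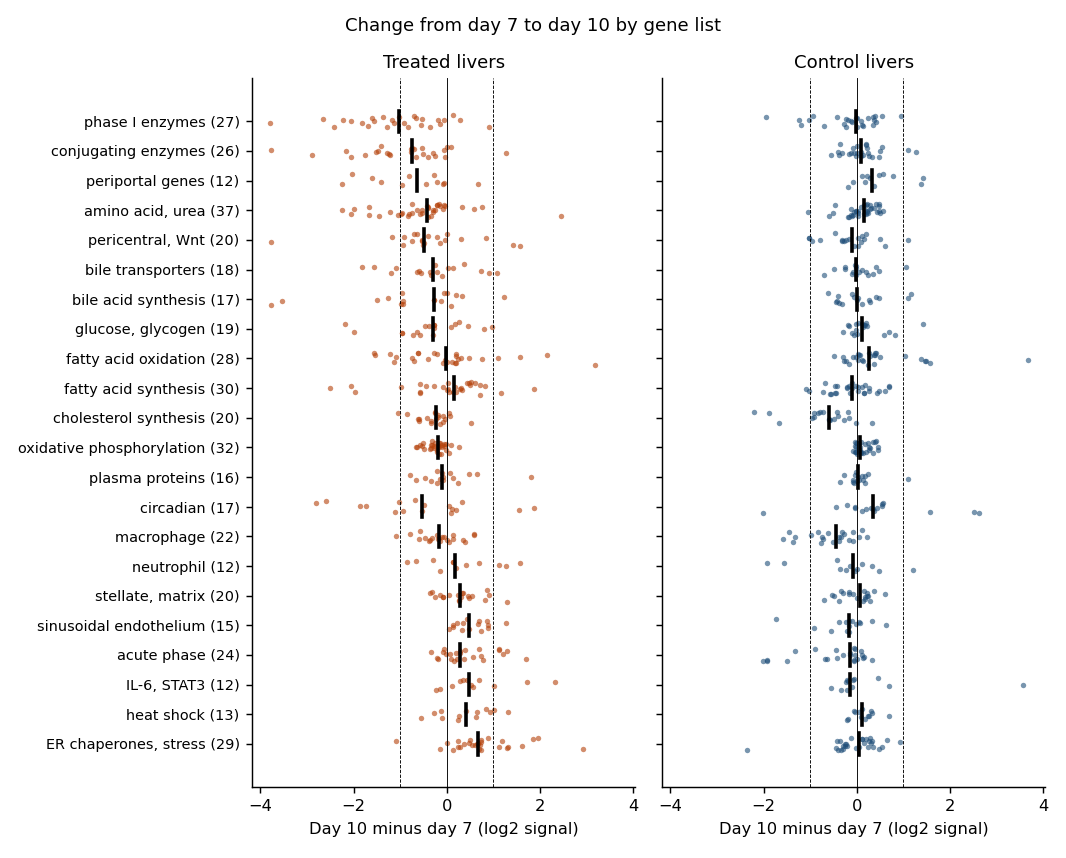
Day 10 minus day 7 difference (log2 signal) of every kept gene of 22 lists, in treated livers (left) and control livers (right), with the number of genes in parentheses, the median as a black bar and dashed lines at 2-fold. In treated livers the medians of phase I and conjugating enzymes are the lowest of those drawn at -1.02 and -0.75 and that of the ER genes is the highest at 0.66, while in control livers these 3 medians lie between -0.02 and 0.08.

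Circadian genes differed between the days in both groups. Of 17 kept, 2 (11.8%) were higher and 6 (35.3%) lower in treated livers, and 3 were higher and 1 lower in control livers. The clock is a loop in which BMAL1 (Arntl) and CLOCK switch on Per, Cry and Nr1d genes, whose products hold the loop back, and outputs such as Dbp. Usp2, a clock-driven ubiquitin protease, went from 2630.0 to 375 in treated livers and from 88.2 to 547 in control livers, 7.01-fold lower and 6.20-fold higher. Its second probe set was lower by 3.10 on the log2 scale in treated livers but differed by only 0.14 in control livers. Dbp, an output activator that binds D-boxes, went from 1172 to 194 and from 332 to 325, and its relatives Tef and Hlf differed by -1.73 and -1.11 in treated and 0.54 and 0.43 in control livers. Cry2 was lower in both groups, from 676 to 186 in treated and from 296 to 72.9 in control livers, and Per3 differed by -1.03 and -0.21. The other probe sets of Per3 differed by -2.72 to -0.23 in treated livers, the largest being a bound from a probe set under the floor at day 10. Ciart, a repressor of the loop that did not pass the filter, had signals of 985 at day 7 and 96.7 at day 10 in treated livers and of 72.8 and 76.8 in control livers. The higher ones were Arntl and Nfil3, which peak opposite to Dbp. Arntl went from 508 to 1488 in treated and from 904 to 1167 in control livers, with -0.04 for its second probe set, and Nfil3, a repressor that competes with Dbp for its sites, from 551 to 2014 and from 612 to 882. In control livers Per1 went from 90.6 to 519 and the deadenylase gene Noct from 768 to 2277, against 1283 and 888 for Per1 and 1536 and 1084 for Noct in treated livers. The day and the hour of killing cannot be told apart in these arrays. Cyp7a1, Upp2 and Lpin1 described above are rhythmic in mouse liver, and the part of the hour in their differences was not tested.

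**Figure D5:**
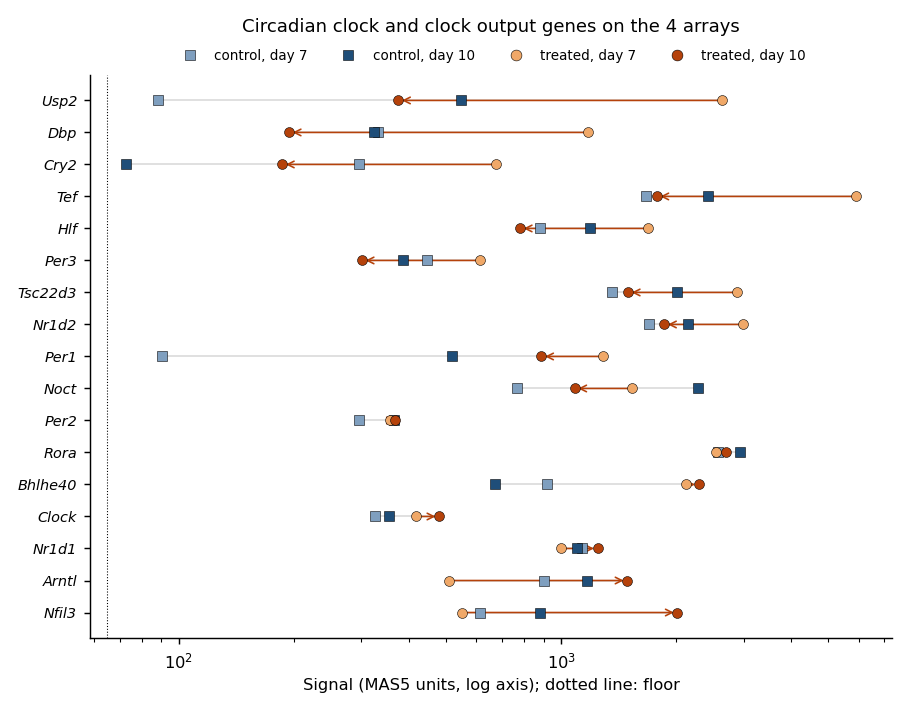
Signal (MAS5 units, log x axis) of 17 clock and clock output genes on the 4 pooled arrays, drawn as squares (control) and circles (treated), paler for day 7 and darker for day 10, with an arrow from day 7 to day 10 in treated livers. Usp2, Dbp, Tef and Hlf move left and Arntl and Nfil3 move right in treated livers, while the control squares of Usp2, Per1 and Noct lie further right at day 10.

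On their brightest probe sets, the receptors that the treatment was aimed at, and their ligands, changed little between the days. Of 15 genes of the MET and EGFR axis 0 passed 2-fold in either group there. The other probe sets of Hgf, the ligand of MET, did not pass the filter. They went from 34.9 and 53.1, under the floor, to 304.6 and 304.0 in treated livers. In control livers they went from 94.5 to 37.1 and from 134.3 to 99.5. A dimmer probe set of Hbegf differed by 1.47 in treated and 1.72 in control livers. Met differed by 0.22 in treated and 0.38 in control livers, Egfr by 0.21 and 0.78, and Erbb3 by -0.19 and -0.26. Erbb2 did not pass the filter, with signals of 50.6 at day 7 and 73.9 at day 10 in treated livers and of 137.2 and 54.4 in control livers. Of 21 immediate early and feedback genes of the ERK cascade 0 passed 2-fold in treated livers, Junb being just short of it (from 761 to 1518, control 245 and 94.9). Of 20 genes of p53 and apoptosis 3 (15%) were higher and 0 lower, with a median of 0.13 in treated and 0.01 in control livers. Gadd45g, a stress sensor, went from 1661 to 4595 in treated and from 265 to 481 in control livers, and Cdkn1a (p21), the inhibitor of cyclin-dependent kinases, from 659.7 to 1435 and from 350.4 to 514. The second probe set of Cdkn1a was higher by 1.55 in treated livers and, from under the floor, by at least 2.58 in control livers. Of 22 kept cell cycle genes 2 (9.09%) were higher and 1 (4.55%) lower, beside 3.84% and 3.78% of all genes. The higher ones were Cdkn1a and the replication helicase gene Mcm4 (from 231 to 463, control 412 and 389). The lower one was Rrm2, a subunit of ribonucleotide reductase (from 752 to 304, control 485 and 528). Its other probe sets, too dim to pass the filter, were lower by at least 1.96 and by 0.60. Mki67, a marker of dividing cells, was at 69.4 and 36.0 in treated and at 95.6 and 174.3 in control livers and did not pass the filter.

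Hormone-dependent and metal-binding genes showed a few large differences. Of 8 genes higher in female than in male mouse liver 5 (62.5%) were lower and 1 (12.5%) higher in treated livers. Over all genes these shares were 3.78% and 3.84%. In control livers 2 of the 8 were higher and 0 lower. Fmo2, a flavin monooxygenase, went from 2038 to 278 in treated and from 188 to 202 in control livers. Cyp17a1, a steroid hydroxylase, went from 11644 to 5615 and from 523 to 519. Cyp4a14 and Acot3 belong to this list too and were given above. Cux2, a repressor of male-type genes and the member that was higher, went from 267 to 1346 and from 240.0 to 179, but its 2 other probe sets were lower by 0.97 and 1.69. Of 15 genes higher in male liver 2 (13.3%) were higher and 1 (6.67%) lower in treated livers, and 0 were higher and 3 lower in control livers. Their median difference was 0.00 in treated and -0.30 in control livers. Treated minus control, their median was -3.08 at day 7 and -1.93 at day 10. The metallothioneins Mt1 and Mt2, which bind zinc, were high at day 7 and, on their brightest probe sets, higher by less than 2-fold at day 10. They went from 43842 to 72079 and from 35381 to 60031 in treated livers. Control signals were 1058 and 953 for Mt1 and 1238 and 1033 for Mt2. The dimmer second probe set of Mt1 was higher by 2.31 in treated livers and, ending under the floor, lower by at least 1.53 in control livers. Smad7, a feedback inhibitor of TGF-beta and BMP signals counted among the iron genes, went from 187 to 529.9 in treated and from 733 to 809 in control livers, with 0.16 on a dimmer second probe set. Bnip3, a mitophagy receptor induced by low oxygen, went from 19744 to 6748 and from 4312 to 6361.

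Subtracting the control change brought forward genes in which the control arrays moved. Shh and Dhh, ligands of the hedgehog pathway, went from 320.5 to 754 and from 204 to 504 in treated livers and from 891 to 78.5 and from 389 to 71.7 in control livers, with a second probe set of each at the floor. The same pattern was seen in Kcnq1, a potassium channel (from 121 to 541, control 865 and 187), Rnf112, a ring finger protein (from 94.7 to 450.2, control 524 and 129.9), and Shisa7, a receptor-associated protein (from 319.8 to 748, control 669.5 and 119). The 2 other probe sets of Rnf112, which did not pass the filter, differed by 0.04 and 0.00 in treated livers. In all 5 the control signal at day 10 and the treated signal at day 7 were the 2 lowest of the 4. The reverse was seen in Spaca4, a sperm membrane protein (from 484 to 127, control 67.6 and 542), and Edaradd, an adaptor of ectodysplasin signalling (from 516 to 146, control 96 and 532), whose other probe sets differed by -0.65 to 0.57. Actb, beta actin, also went opposite ways, from 11241 to 23369 in treated and from 34642 to 16686 in control livers, beside the 3′ to 5′ actin ratios given above. Its second probe set differed by 0.35 in treated and 0.05 in control livers and so showed no 2-fold change in either.

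Many genes lay close to the 2-fold limit. Just inside it lay Anxa2, an annexin (from 1145 to 2291, control 1992 and 1282), and Mcm4, at a log2 difference of 1.001, on the higher side, and Ntm, a neural adhesion protein, and Agt, angiotensinogen, both at -1.001 (control 0.21 and 0.26), on the lower side. The 2 other probe sets of Ntm differed by 0.00 and 0.21. Just outside the limit were Kank4 and Nphs1, both at a difference of 0.998 (control 1.07 and -0.51).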

How the data were processed

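The series has 4 single-colour Affymetrix mouse arrays of pooled liver RNA, 1 for each of 2 groups and 2 days, and none is replicated. The authors deposited linear intensity values (signal) per probe set, made with MAS5 (version not given in the sources used here) per the submitters' processing notes. Deposited values had a mean of 500 on each array after trimming 2% at each end, and detection calls were not used here. Arrays have no read depth, so that their number limits the precision.

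Of 45101 probe sets 64 were array controls, and 34945 had a single gene symbol, 932 several and 9160 none in the platform annotation. Of the singly named ones 99.4% matched the RefSeq gene table (GRCm38.p6) by Entrez ID. Signals below 64.8, the 25th percentile over all arrays, were raised to it and log2 was taken, with the brightest probe set standing for each gene. The 11993 of 18193 genes with a mean log2 above 7.67 (a signal of 204) were kept. Differences are day 10 minus day 7, from 1 array per side, with a size rule of 2-fold and no test. The steps were tested on simulated data with known changes, all larger than 2-fold and only in genes well above the filter. Changes near 2-fold and changes in dim genes were not covered by that test. A fold against a signal under the floor is given as "at least".

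The 57 gene lists, the members and the rules were chosen with earlier results of these data known. By rule, the genes named were the 15 highest and 15 lowest in treated livers, passing over predicted genes, the 10 highest and 10 lowest by treated minus control change, members of each list with the largest differences or with a role to describe, and Met, Egfr, Erbb2, Erbb3 and Alb. Alternatives were other floors, filters, scalings and size rules, averaging of probe sets and each other probe set. Promoter windows came from RefSeq, and the ER stress response element was added after the values were seen. Some genes are not analysed here, because their probe sets carry several symbols. Python 3.11.15, numpy 2.4.6, pandas 2.3.3 and matplotlib 3.10.9 were used.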

Additional observations from a re-analysis of the deposited data

Results flagged for a closer look

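Several named genes moved at least 2-fold in opposite directions in the 2 groups, each on 1 array per side, and this difference was not tested. Lower in treated and higher in control livers, with the treated minus control change on the log2 scale, were Epha2 (-6.68), Usp2 (-5.44), Cyp4a14 (-5.23), Spaca4 (-4.94), Gsta4 (-4.88), Cyp7a1 (-4.86), Edaradd (-4.29), Gsta2 (-4.17), Acot3 (-3.03), Slco1a4 (-2.90), Etnppl (-2.78) and Nr1h4 (-2.43). Higher in treated and lower in control livers were Rab3a (7.39), Mroh2a (7.18), Nlrp12 (6.50), Derl3 (5.28), Shh (4.74), Kcnq1 (4.37), Rnf112 (4.26), Dhh (3.74), Shisa7 (3.71), Ccl17 (3.36), Orm2 (3.13), Lcn2 (3.03), Saa2 (2.79) and Actb (2.11). The second probe sets of Usp2, Actb, Rab3a, Cyp7a1 and Etnppl differed by 0.14, 0.05, -0.30, 0.80 and 0.93 in control livers, less than 2-fold. Those of Mroh2a, Shh and Dhh lay at the floor on both control arrays. None of the other probe sets of Edaradd rose in control livers. Of those of Rnf112, 1 fell there by at least 1.52 and the other lay at the floor. Of all 460 genes that were higher in treated livers 47 were lower in control livers (10.2%), and 24 were higher there (5.22%). Of the 453 that were lower 34 were higher in control livers (7.51%) and 33 lower (7.28%). In control livers 3.09% of all genes were lower and 2.05% higher.

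Probe sets with several or no gene symbol entered none of the gene counts. Of 3596 that passed the same filter, 164 (4.56%) were at least 2-fold higher at day 10 in treated livers, against 76 (2.11%) in control livers, and 147 (4.09%) were lower against 158 (4.39%).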

How the results depend on the processing

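All 6 counts of higher and lower genes stayed within 1.5 times of their reported value with the floor moved to the 10th or to the 40th percentile, quantile normalization or arrays scaled to equal medians, and 5 of 6 did so when probe sets were averaged, where the control count of higher genes was 160. With no filter on dim genes the higher and lower counts were 1036 and 948 genes in treated livers, 697 and 901 in control livers and 2035 and 1584 for the treated minus control change. A filter at the 75th percentile gave 169 and 207 genes in treated livers, 73 and 91 in control livers and 378 and 426 for the treated minus control change. A size rule of 1.5-fold gave 1508 and 1259 genes in treated livers, 870 and 1146 in control livers and 2533 and 1978 for the treated minus control change, and one of 3-fold 132 and 152 genes in treated livers, 76 and 124 in control livers and 371 and 271 for the treated minus control change. Higher genes were 50.4% of the treated calls, and between 43.1% (equal medians) and 52.2% (no filter) under the alternatives that keep the 2-fold rule. Of 2434 values of 183 genes in the text under these settings, 2382 stayed on the same side of 2-fold, 38 came under it and 14 passed it. The choice of filter does not alter the value of a gene. The 366 values with no filter and the 272 with the stricter filter were therefore bound to stay the same. Direction was compared only for differences of at least 2-fold, and 0 of these changed it. Of 154 values from other probe sets of these genes, 79 stayed on the same side, 47 came under 2-fold, 10 passed it and 18 had the opposite direction. Direction was again compared only for genes at least 2-fold apart. The 18 were from Arntl (-0.04), Cklf (0.76, 0.11, 0.83 and 0.23), Cux2 (-1.69 and -0.97), Edaradd (0.57 and 0.23), Ercc1 (0.20), Galnt7 (-0.78 and -0.17), Hsd17b13 (0.57), Lyz1 (0.40), Ntm (0.21), Phgdh (-0.75 and -0.05) and Thrsp (0.59), where the cause was not tested. Of 794 list medians 779 moved by less than 0.25. That includes 114 with no filter, which could not move because the lists hold kept genes only. Leaving out an array was not possible, since each side has 1, and no paired analysis was possible because the labels give no replicate numbers. Signals near the floor limit the dimmer genes, whose differences are bounds or rest on 1 probe set.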

Other observations

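Several lists that serve the basic work of the cell differed little between day 7 and day 10 in treated livers. Of 17 ribosomal protein genes 0 passed 2-fold, with a median of -0.10 in treated and 0.00 in control livers. Of 30 proteasome genes 0 passed 2-fold in treated livers, with medians of -0.01 and 0.29. Of 22 coagulation genes 2 (9.09%) were higher, the genes of coagulation factors XI (F11) and VIII (F8), and 0 lower, beside 3.84% and 3.78% of all genes. Cholesterol synthesis, with 20 genes kept, was lower in control livers, with a median of -0.59 and 3 genes at least 2-fold lower, against -0.24 and 1 gene in treated livers.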
